A study of Homo sapiens with 20 samples.

Results

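CTCF peaks and H3K4me3 and H3K27ac regions were examined at 7 imprinted genes that lie outside the 11p15 domain, namely DLK1, MEG3, MEST, GRB10, PEG10, PEG3 and GNAS. Every peak or region that overlapped 1 of 6 fixed windows of the hg19 genome by at least 1 bp was taken. The windows were chr14:101150000-101350000 for DLK1 and MEG3, chr7:130100000-130170000 for MEST, chr7:50630000-50890000 for GRB10, chr7:94260000-94320000 for PEG10, chr19:57300000-57380000 for PEG3 and chr20:57390000-57510000 for GNAS. They held 376 of the 790168 peaks and regions in the lists of 20 libraries, made up of 87 CTCF peaks, 128 H3K4me3 regions and 161 H3K27ac regions. The CTCF peaks merged into 31 sites.

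LNCaP, a human prostate cancer cell line, and IMR90, a human fetal lung fibroblast line, were transfected with 20 nM of a control siRNA or of a pool of siRNAs against CTCF and harvested at 144 h, and the LNCaP cells received a repeat transfection in between. CTCF was profiled by ChIP-seq in LNCaP and in IMR90, and in IMR90 a second time with a low-cell protocol (IMR90 low-cell), and the histone marks were profiled in LNCaP only. Each of the 10 conditions had 2 libraries. Chromatin marks of IMR90 were not analysed here.

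At an imprinted gene the copies inherited from the mother and the father carry different DNA methylation and are not expressed alike, and a differentially methylated control region sets which copy is active. CTCF is a zinc finger protein that binds a long DNA motif, insulates enhancers from promoters and anchors chromatin loops, and methylation of cytosines in its motif blocks its binding at the H19 control region. H3K4me3 marks promoters in use, and H3K27ac marks active promoters and enhancers. Peaks called on all reads do not separate the parental copies, so a peak at an imprinted site may come from 1 copy or from both, and methylation was not analysed here.

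The sequences of the sites on which the results turn are shown first, so that the loci can be compared at the level of the motif. They comprise the sites that kept a peak after CTCF siRNA, the site with the highest fold enrichment of each window and experiment, and 1 site in a MEG3 exon near its main starts. Each is written 5′ to 3′ on the strand of the best match to the CTCF consensus core motif, with the 14 bases of that match in capitals and 8 bases of the hg19 reference on either side.
GRB10 intronic site: cctacaggCCAGTAGGTGGCGCttgcagtt
GNAS intronic site: gctcctccCCACCAGAGGTCAGcagagagc
XLαs site of GNAS: tctctctgCCACCAGAGGACGCcggttcca
MEG3 distal site: ggttttgcCCACCAGGGGGCAGcagagggt
MEG3 proximal site: ctggctggCCGCGAGAGGGCGCtggcggca
MEST promoter site: taccctttGCAATAGGTGGCGCtgacgcct
PEG3 site: tttgctggCCATTAGGTGGCAGccacggtg
PEG10-SGCE site: gtggcccgCCGCTAGAGGGAGTacgggatt

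The printed stretches lie at chr7:50700779-50700808 (minus strand) for the GRB10 intronic site, chr20:57445504-57445533 (plus) for the GNAS intronic site and chr20:57427909-57427938 (minus) for the XLαs site. Those of the MEG3 distal and proximal sites lie at chr14:101317645-101317674 (plus) and chr14:101293626-101293655 (plus), and that of the MEST promoter site at chr7:130125999-130126028 (plus). Those of the PEG3 and PEG10-SGCE sites lie at chr19:57349437-57349466 (minus) and chr7:94285515-94285544 (minus). The GRB10 intronic site and the MEG3 distal site matched the consensus at every base. The XLαs, GNAS intronic and PEG3 sites had 1 mismatch, the MEG3 proximal and MEST promoter sites had 2, and the PEG10-SGCE site had 3. The matched bases of the MEG3 proximal site held 3 CpG dinucleotides, those of the GRB10 intronic, XLαs, MEST promoter and PEG10-SGCE sites held 1 each, and those of the GNAS intronic, MEG3 distal and PEG3 sites held 0.

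CTCF peaks in the windows were fewer after CTCF siRNA in all 3 experiments. LNCaP control libraries had 22 and 24 peaks and CTCF siRNA libraries had 0 and 2. In IMR90 control libraries had 7 and 10 peaks and CTCF siRNA libraries 4 and 3, and in the low-cell experiment control libraries had 6 and 8 peaks and CTCF siRNA libraries 1 and 0. In each experiment both CTCF siRNA libraries lay below both control libraries. The mean count was 23 ± 1.41 against 1.00 ± 1.41 in LNCaP, 8.5 ± 2.12 against 3.5 ± 0.707 in IMR90 and 7.00 ± 1.41 against 0.500 ± 0.707 in IMR90 low-cell (mean ± SD, n = 2). The differences summed to -33.5 peaks over the 3 experiments (two-sided exact permutation test within experiments, p = 0.00926, the smallest that its 216 assignments can give). Within a single experiment the smallest possible p is 0.333, and each experiment gave it. The study's methods call the ChIP-seq replicates biological duplicates and the low-cell ones duplicates, and the labels do not say how they were separated, so these p-values measure the spread between libraries.

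The decrease in the windows went with shorter peak lists. LNCaP lists held 38017 and 46364 peaks in control cells versus 3724 and 7730 after CTCF siRNA. Per 10000 listed peaks, the windows held 5.79 (95% Wilson interval 3.82 to 8.76) and 5.18 (3.48 to 7.70) in the LNCaP control libraries and 0 (0 to 10.3) and 2.59 (0.710 to 9.43) after CTCF siRNA, so the values did not overlap but their intervals did. In IMR90 the same ratio was 1.96 and 2.71 in control cells versus 2.09 and 1.62 after CTCF siRNA, and the groups overlapped. In the low-cell experiment it was 2.96 (1.36 to 6.45) and 4.18 (2.12 to 8.24) in control cells versus 1.96 (0.345 to 11.1) and 0 (0 to 19) after CTCF siRNA, again lower in both CTCF siRNA libraries with overlapping intervals. When every list was cut to the shortest of its experiment by p-value, the windows held 1 and 2 peaks in LNCaP control cells against 0 and 0, 5 and 4 in IMR90 control cells against 3 and 3, and no peak in any low-cell library. The summed difference was then -3 (exact permutation test, p = 0.0556). The deposited lists hold no read counts, and the intervals cover counting error only. The study's reporting summary gives reads per library. Among the LNCaP CTCF libraries it gives the fewest for CTCF siRNA replicate 1. Peak numbers were not adjusted for depth, and its effect was not tested.

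**Figure D1:**
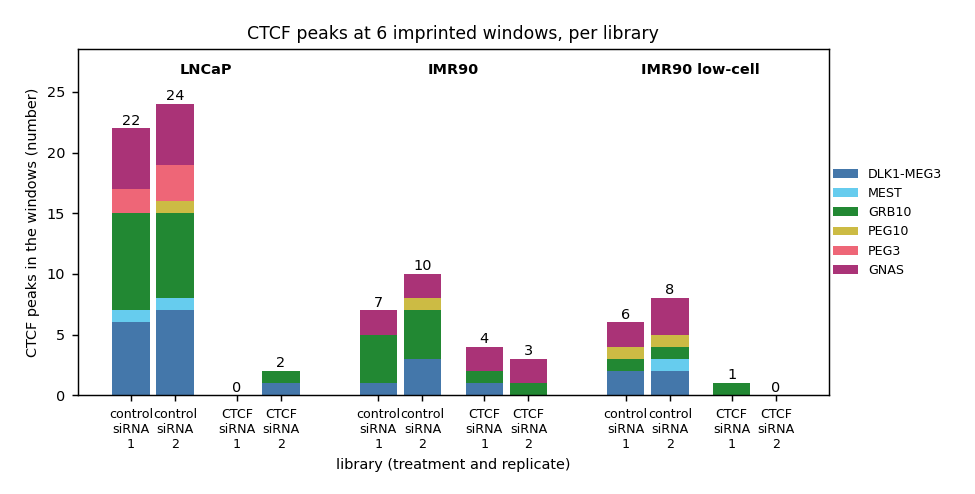
Number of CTCF peaks in the 6 windows in each of the 12 CTCF libraries, stacked by window, with the total above each bar. Control totals were 22 and 24 in LNCaP, 7 and 10 in IMR90 and 6 and 8 in IMR90 low-cell, and every CTCF siRNA total lay below both control totals of its experiment.

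Sites were then followed one by one. A control site is a merged peak found in both control libraries of an experiment, a persistent site also has one in each CTCF siRNA library, a lost site has one in neither, and a gained site has one in both CTCF siRNA libraries but in no control library. Of the 31 sites, 17 were control sites in at least 1 experiment. The other 14 had a control peak in some experiment but never in both control libraries of one, and no site was found after CTCF siRNA alone. Of these 14, 12 were listed in a single library and 11 in LNCaP only, with a fold enrichment of 3.73 to 12. None of the 16 LNCaP control sites was persistent, which allows a share of up to 18.8%, against 9.26% of the 33413 control sites genome-wide. In IMR90, 3 of 7 were persistent (42.9%, 95% Wilson interval 15.8 to 75%), against 51.4% genome-wide. None of the 6 low-cell control sites was persistent, which allows up to 50.0%, against 10.9% genome-wide. The shares in the windows were near the genome-wide shares of the same experiment at these numbers of sites. When every list was cut to the shortest of its experiment, 0 of 1 LNCaP control site was persistent, against 40.0% genome-wide, and 3 of 4 IMR90 control sites were, against 81.2% genome-wide, and no low-cell control site was left in the windows. No site was gained in the windows in any experiment.

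The persistent sites of IMR90 were the GRB10 intronic site, the XLαs site and the GNAS intronic site. None of them was persistent in LNCaP or in the low-cell experiment. In both, the GNAS sites were lost and the GRB10 intronic site had a peak in 1 of the 2 CTCF siRNA libraries. The paper reports a larger reduction of CTCF mRNA in LNCaP than in IMR90. Whether this bears on the fates of the sites was not tested. The height of a peak is given below as its fold enrichment over local background in the peak caller's output, which is not scaled between libraries.

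**Figure D2:**
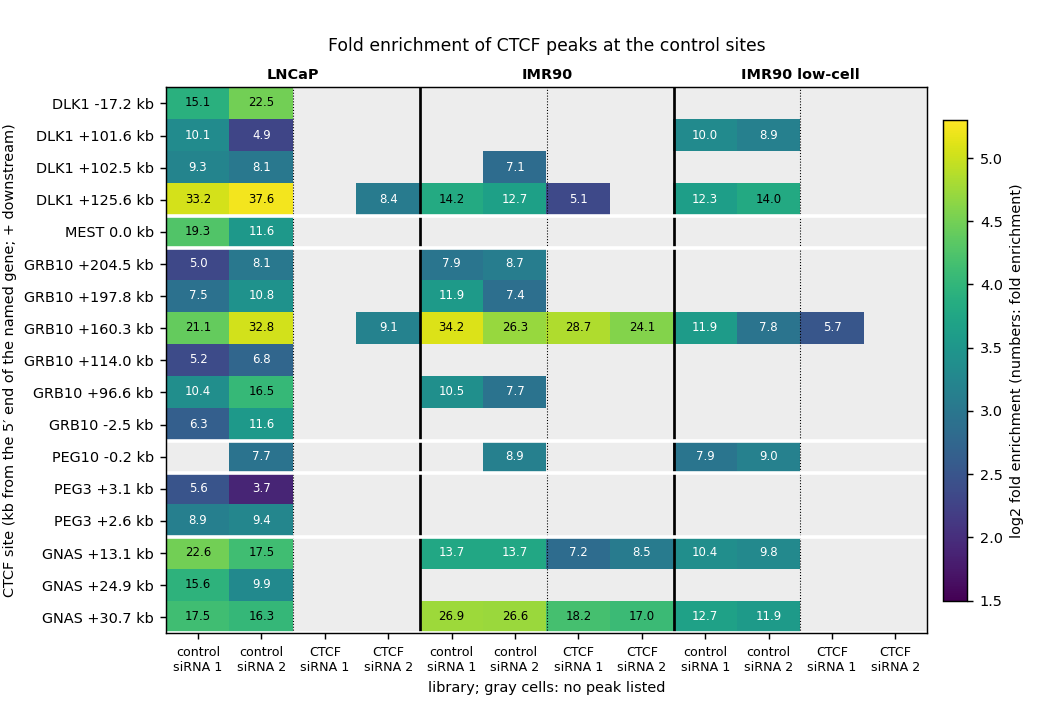
Fold enrichment of the CTCF peak at each of the 17 control sites (rows, named by distance in kb from the 5′ end of a member gene) in the 12 libraries (columns), colored by its log2 value, with gray where no peak was listed. The 3 rows filled in all 4 IMR90 columns are the GRB10 intronic site and both persistent GNAS sites, and the LNCaP CTCF siRNA columns hold 2 values, 8.43 and 9.12, both in replicate 2.

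GRB10 encodes an adaptor protein that inhibits signaling from the insulin and IGF1 receptors, and its promoters are imprinted in a tissue-specific manner. Its intronic site (chr7:50700481-50701147) lay 160.3 kb into the gene and had a peak in 10 of the 12 libraries, more than any other site of the windows. Fold enrichment in LNCaP control cells was 21.1 and 32.8, and after CTCF siRNA no peak was listed in replicate 1 and one of 9.12 in replicate 2. In IMR90 it was 34.2 and 26.3 in control cells versus 28.7 and 24.1 after CTCF siRNA, so the groups overlapped. In the low-cell experiment it was 11.9 and 7.82 in control cells, and after CTCF siRNA a peak of 5.71 was listed in replicate 1 and none in replicate 2. The IMR90 means were 30.3 ± 5.56 and 26.4 ± 3.27 (SD, n = 2), a ratio of 0.872 of CTCF siRNA to control. The median of that ratio over the 15693 persistent IMR90 sites was 0.727, with quartiles of 0.528 and 0.986. The site ranked at the 90.6th percentile of LNCaP control sites by fold enrichment and at the 93.4th of IMR90. Among LNCaP control sites at or above the 90th percentile, 37.9% were persistent.

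The other 5 LNCaP control sites of the GRB10 window were listed in no CTCF siRNA library of any experiment. Among them was a site within 2 kb of an internal start of a non-coding GRB10 transcript (chr7:50663163-50663566), overlapping coding sequence, with a fold enrichment of 7.53 and 10.8 in LNCaP control cells and 11.9 and 7.41 in IMR90 control cells. The remaining 4 ranged from 4.99 to 16.5 in LNCaP control cells, and 2 of these 4 were also IMR90 control sites. The GRB10 window thus held strong and weak control sites, and its site with the highest fold enrichment was the persistent one in IMR90.

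GNAS encodes the stimulatory G protein subunit Gsα and, from alternative first exons, the large variant XLαs and the neuroendocrine secretory protein NESP55, with an antisense RNA, GNAS-AS1, across the upstream part. The XLαs site (chr20:57427740-57428111) lay 141 bp from the XLαs start, in its untranslated sequence. Its fold enrichment was 22.6 and 17.5 in LNCaP control cells, with no peak after CTCF siRNA. In IMR90 it was 13.7 in both control libraries and 7.17 and 8.50 after CTCF siRNA, so both CTCF siRNA values lay below both control values. In the low-cell experiment it was 10.4 and 9.76 in control cells, with no peak after CTCF siRNA. The ratio of the IMR90 means was 0.572, between the quartiles of all persistent IMR90 sites.

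The GNAS intronic site (chr20:57445156-57445829) lay between the XLαs start and the starts of Gsα, 30.7 kb from the 5′ end of the gene. Fold enrichment was 17.5 and 16.3 in LNCaP control cells, with no peak after CTCF siRNA. In IMR90 it was 26.9 and 26.6 in control cells versus 18.2 and 17 after CTCF siRNA, again without overlap of the groups. In the low-cell experiment it was 12.7 and 11.9 in control cells, with no peak after CTCF siRNA. The IMR90 means were 26.7 ± 0.254 and 17.6 ± 0.823 (SD, n = 2), a ratio of 0.658. Another GNAS intronic site was a control site in LNCaP only, at 15.6 and 9.90, and was lost. Near the NESP55 start a peak was listed in LNCaP control replicate 1 and in low-cell control replicate 2 only, so this was no control site.

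**Figure D3:**
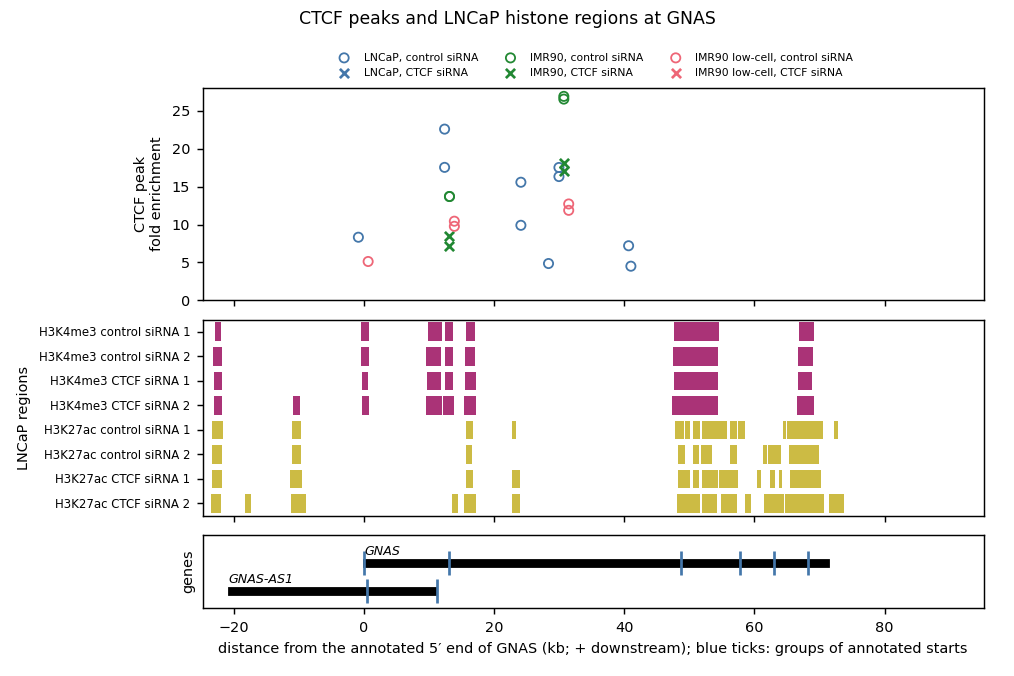
CTCF fold enrichment (top, circles for control siRNA and crosses for CTCF siRNA, the 3 experiments shifted slightly sideways), LNCaP histone regions in each library (middle) and genes (bottom) against distance in kb from the 5′ end of GNAS. The green crosses of the IMR90 CTCF siRNA libraries stand at 2 sites, 13.1 and 30.7 kb from the 5′ end, at 7.17 and 8.50 and at 18.2 and 17.

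DLK1 encodes a transmembrane protein related to Notch ligands that is expressed from the paternal copy, and MEG3 is a long non-coding RNA expressed from the maternal copy of the same domain. No control site lay within 2 kb of a DLK1 start. The MEG3 distal site (chr14:101317429-101318008), in a MEG3 exon 4102 bp from the nearest MEG3 start, had the highest LNCaP fold enrichment of all sites in the windows, at the 97th percentile of LNCaP control sites. Its fold enrichment in LNCaP control cells was 33.2 and 37.6, and after CTCF siRNA no peak was listed in replicate 1 and one of 8.43 in replicate 2. In IMR90 it was 14.2 and 12.7 in control cells, and after CTCF siRNA a peak of 5.06 was listed in replicate 1 and none in replicate 2. In the low-cell experiment it was 12.3 and 14 in control cells, with no peak after CTCF siRNA. This site and the GRB10 intronic site were the 2 of 16 LNCaP control sites with a peak in 1 CTCF siRNA library, against 21.4% of all LNCaP control sites with a peak in at least 1. Counted the same way, 4 of 7 IMR90 control sites had a peak in at least 1 CTCF siRNA library, against 66.1% genome-wide, and 1 of 6 low-cell control sites had one, against 28.3% genome-wide.

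A pair of control sites lay within 2 kb of the main MEG3 starts. The MEG3 proximal site (chr14:101293320-101293867), in a MEG3 exon, had a fold enrichment of 10.1 and 4.92 in LNCaP control cells and 9.96 and 8.92 in low-cell control cells, and was not listed in any standard IMR90 library. Its neighbor in a MEG3 intron (chr14:101294427-101294793) had 9.30 and 8.10 in LNCaP control cells and 7.15 in IMR90 control replicate 2. Neither had a peak in any CTCF siRNA library. An intergenic site 17.2 kb upstream of DLK1, chosen after its values were seen, had a fold enrichment of 15.1 and 22.5 in LNCaP control cells and was listed in no other library.

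**Figure D4:**
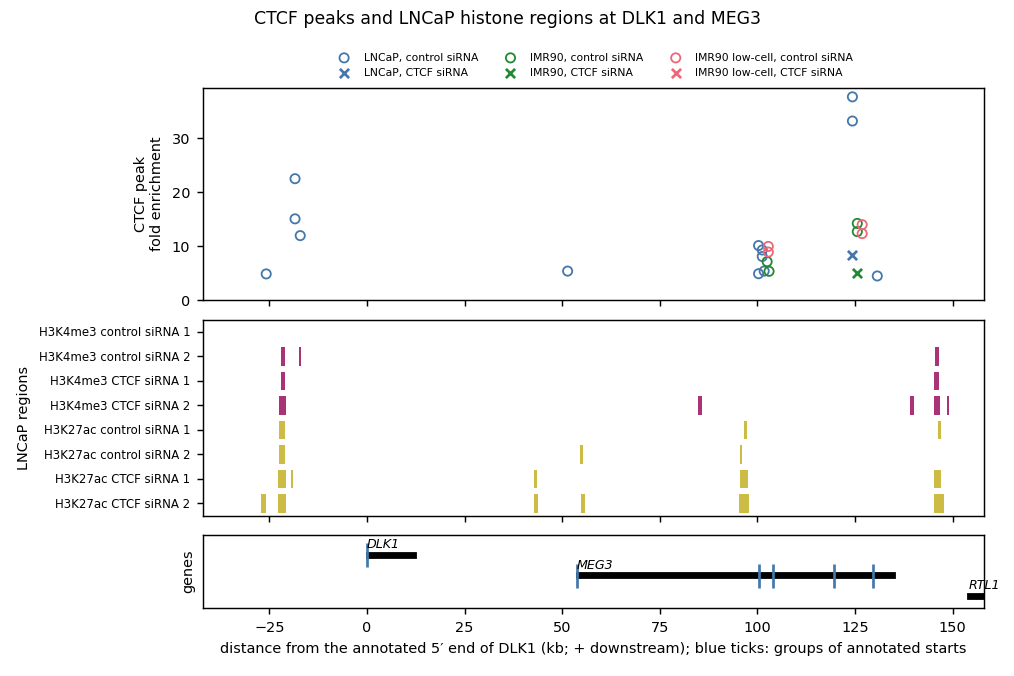
CTCF fold enrichment (top, circles for control siRNA and crosses for CTCF siRNA, the 3 experiments shifted slightly sideways), LNCaP histone regions in each library (middle) and genes (bottom) against distance in kb from the 5′ end of DLK1. A cross of LNCaP at 8.43 and a cross of IMR90 at 5.06 stand at the MEG3 distal site, 125.6 kb from the DLK1 5′ end, and no histone region covers a start of DLK1 or MEG3.

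MEST encodes a protein of the alpha/beta hydrolase fold family expressed from the paternal copy. Its promoter site (chr7:130125837-130126221) lay 3 bp from the upstream MEST start, with a fold enrichment of 19.3 and 11.6 in LNCaP control cells, and was listed in no other library. PEG3 encodes a zinc finger protein expressed from the paternal copy. The PEG3 site (chr19:57349287-57349931), in an intron shared with ZIM2, had 8.86 and 9.45 in LNCaP control cells, and a weaker site beside it (chr19:57348838-57349060) had 5.59 and 3.73. Both were listed in no IMR90 library and in no CTCF siRNA library. The site of PEG10, a gene derived from a retrotransposon, overlapped the head-to-head starts of PEG10 and SGCE (chr7:94285265-94285807). It was a control site in the low-cell experiment only, at 7.91 and 9.03, with peaks of 7.71 in LNCaP control replicate 2 and 8.93 in IMR90 control replicate 2 and none after CTCF siRNA. Of the 17 control sites, 7 were listed only in LNCaP libraries, and all 7 IMR90 control sites were also LNCaP control sites.

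Control sites within 2 kb of a start were also counted for the 15 imprinted genes of these loci and 28 imprinted genes elsewhere, with a site near 2 genes counted for each. In LNCaP, 0 of 11 such sites at the loci and 1 of 15 elsewhere were persistent. In IMR90 the counts were 2 of 5 and 6 of 15, and in the low-cell experiment 0 of 5 and 1 of 12. The genes elsewhere include H19, IGF2, CDKN1C, KCNQ1, KCNQ1OT1 and PHLDA2 of the 11p15 domain. H19 had 4 and IGF2 had 3 of the 15 LNCaP sites elsewhere. The 1 persistent site elsewhere in LNCaP, the 1 in the low-cell experiment and 3 of the 6 in IMR90 lay near IGF2 starts. The 2 at the loci in IMR90 are the XLαs site, counted for GNAS and for GNAS-AS1, and sites at the RTL1 start, which lies outside the windows, are included.

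The overlap between cell lines was described as a share of each list. In the windows, 7 of 16 LNCaP control sites were IMR90 control sites (43.8%), against 72.5% of the 33413 LNCaP control sites genome-wide. In the other direction, 7 of 7 IMR90 control sites were LNCaP control sites, against 79.4% genome-wide. The consensus core motif with up to 2 mismatches, searched on both strands within 100 bp of the summit, was found at 15 of 16 LNCaP control sites (93.8%), against 74.0% genome-wide and 5.23% of windows of the same length 1000 bp from each summit. It was found at 6 of 7 IMR90 sites, against 71.6% genome-wide, and at 5 of 6 low-cell sites, against 81.1% genome-wide. With at most 1 mismatch it was found at 7 of 16 LNCaP sites (43.8%), against 43.7% genome-wide, so the LNCaP share stood above the genome-wide one only with the looser setting. The same counts were 4 of 7 in IMR90, against 42.5% genome-wide, and 4 of 6 in the low-cell experiment, against 55.1% genome-wide. A match is a description of the letters and does not show that the site is bound through it.

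LNCaP histone regions were compared as merged regions present in 2 or more of the mark's 4 libraries. H3K4me3 had 28 such regions in the windows, 18 of them in all 4 libraries, and H3K27ac had 25, 17 of them in all 4. Active marks covered starts of MEST, GRB10, PEG3 and GNAS in every library of both marks, and no start of DLK1 or MEG3 in any library. Of 15 listed imprinted genes of these loci (the 7 members, RTL1, MESTIT1, COPG2, DDC, SGCE, ZIM2, MIMT1 and GNAS-AS1), 8 had H3K4me3 over a start in all 4 libraries, 6 in none and 1 in some. For H3K27ac the counts were 5, 7 and 3. For 28 imprinted genes elsewhere in the genome the counts were 22, 2 and 4 for H3K4me3 and 13, 9 and 6 for H3K27ac. The 1 gene whose start carried H3K4me3 in both control libraries but in no CTCF siRNA library was DDC, which encodes a decarboxylase of dopamine and serotonin synthesis. That start (50547661 on chromosome 7) lies outside the GRB10 window and belongs to 1 non-coding transcript. The starts of 7 DDC transcripts (50628745 to 50628768) carried no H3K4me3 in any library. The opposite pattern, both CTCF siRNA libraries and no control library, was found at 1 of the 28 genes elsewhere for H3K4me3 (MAGEL2) and at 3 for H3K27ac. The share over all genes was not counted.

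The starts of 1 gene did not share a state. At MEST, H3K4me3 covered the upstream starts (130126012 to 130126967 on chromosome 7) in all 4 libraries. H3K27ac covered at least 1 of them in each library, but its region in control replicate 1 began at 130126051, past the start at 130126012. The downstream starts (130131170 to 130132313), beside the antisense gene MESTIT1, were covered by neither mark in any library. The H3K4me3 region over the upstream starts (chr7:130124951-130127650) covered 2.65 and 2.55 kb in control cells and 2.4 and 2.5 kb with CTCF siRNA, and the H3K27ac region (chr7:130125551-130128050) 1.35 and 1.6 kb and 1.7 and 2.35 kb. The groups did not overlap for either mark, with shorter H3K4me3 and longer H3K27ac lengths after CTCF siRNA, and these single regions were not tested. At PEG3, the starts of 13 transcripts (57352029 to 57352096 on chromosome 19), beside the start of the non-coding gene MIMT1, were covered by neither mark in any library, and a start at 57349186 used by 1 transcript was covered by both marks in all 4. The region over it (chr19:57347901-57351700) covered 2.4 and 3.05 kb of H3K4me3 in control cells versus 2.45 and 3.8 kb after CTCF siRNA, and the groups overlapped. The H3K27ac region over it (chr19:57348051-57351550) covered 1.85 and 2.55 kb in control cells versus 2.95 and 3.5 kb after CTCF siRNA, without overlap. A start counts as covered only where a called region spans the start base itself, and a group of starts where at least 1 of them is spanned. These merged regions of the 2 marks ended at 57351700 and 57351550, within 1 kb of the uncovered starts from 57352029 on. Both ends were those of CTCF siRNA replicate 2, and the calls of control replicate 1 ended further away, at 57350650 for H3K4me3 and 57350600 for H3K27ac. The neighboring H3K27ac region, at starts of ZIM2, a zinc finger gene that shares exons with PEG3 (chr19:57345401-57347700), covered 1.3 and 1.5 kb versus 2.2 and 1.95 kb, also without overlap, and neither region was tested singly. Its calls spanned the ZIM2 start at 57347446 in 2 libraries only, control replicate 2 and CTCF siRNA replicate 1. At PEG10 and SGCE, H3K4me3 covered at least 1 of the shared starts of each gene in all 4 libraries, and H3K27ac covered them in none. The H3K4me3 region (chr7:94285301-94287450) covered 1.95 and 1.95 kb in control cells and 1.60 and 2.15 kb after CTCF siRNA. In CTCF siRNA replicate 1 it began at 94285851, past the PEG10 start at 94285637.

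GNAS showed the same split between marks. The NESP55 starts (chr20:57414301-57415550), the main GNAS-AS1 starts (chr20:57424251-57426750) and the XLαs starts (chr20:57426901-57428550) were covered by H3K4me3 in all 4 libraries and by H3K27ac in none. The region over the starts of Gsα and neighboring first exons carried H3K4me3 (chr20:57462151-57469350) over 6.95 and 6.95 kb in control cells versus 6.75 and 7.00 kb after CTCF siRNA. H3K27ac also covered starts of this group in all 4 libraries, but not each of them. The starts of GNAS-201, GNAS-207 and GNAS-210 lay in the H3K4me3 region but in neither neighboring H3K27ac region (chr20:57462551-57466400 and chr20:57466601-57473400). All 7 H3K4me3 regions of the GNAS window were found in all 4 libraries, the XLαs region among them, which holds the XLαs CTCF site with a fold enrichment of 22.6 and 17.5 in LNCaP control cells and no peak after CTCF siRNA.

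GRB10 was covered by H3K27ac over nearly its whole length. A merged region of 209.55 kb (chr7:50651301-50860850), listed as 1 region in control replicate 1 and as several in the other libraries, held 8 of the 9 CTCF sites of the window, and the regions in it covered 209.5 and 203.35 kb in control cells versus 200.55 and 205.1 kb after CTCF siRNA, so the groups overlapped. The H3K27ac regions of a library covered 80.7 to 86.4% of the GRB10 window, whereas the median H3K27ac region of a library was 1300 to 1700 bp wide. H3K4me3 covered both groups of upstream GRB10 starts in all 4 libraries (chr7:50846451-50853750 and chr7:50856951-50862400), and 6 further H3K4me3 regions within the gene were also found in all 4. The regions over the starts covered 4.1 and 6.95 kb in control cells and 4.85 and 6.55 kb with CTCF siRNA for the downstream group, and 5.4 and 4.9 kb against 4.2 and 4.7 kb for the upstream group. The lengths overlapped for the downstream group and were shorter with CTCF siRNA for the upstream group. The 1 H3K4me3 region of the windows called in both control libraries but not after CTCF siRNA lay between those starts (chr7:50855001-50856700), with 0.85 and 0.9 kb in control cells. The calls were chr7:50855851-50856700 in control replicate 1 and chr7:50855001-50855900 in control replicate 2, so they overlapped only at their ends. This merged region was 1 of 28 (3.57%), against 2.55% genome-wide, and it was not counted apart when regions up to 1000 bp apart were merged. None of the 28 was in both CTCF siRNA libraries only, against 6.44% genome-wide.

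**Figure D5:**
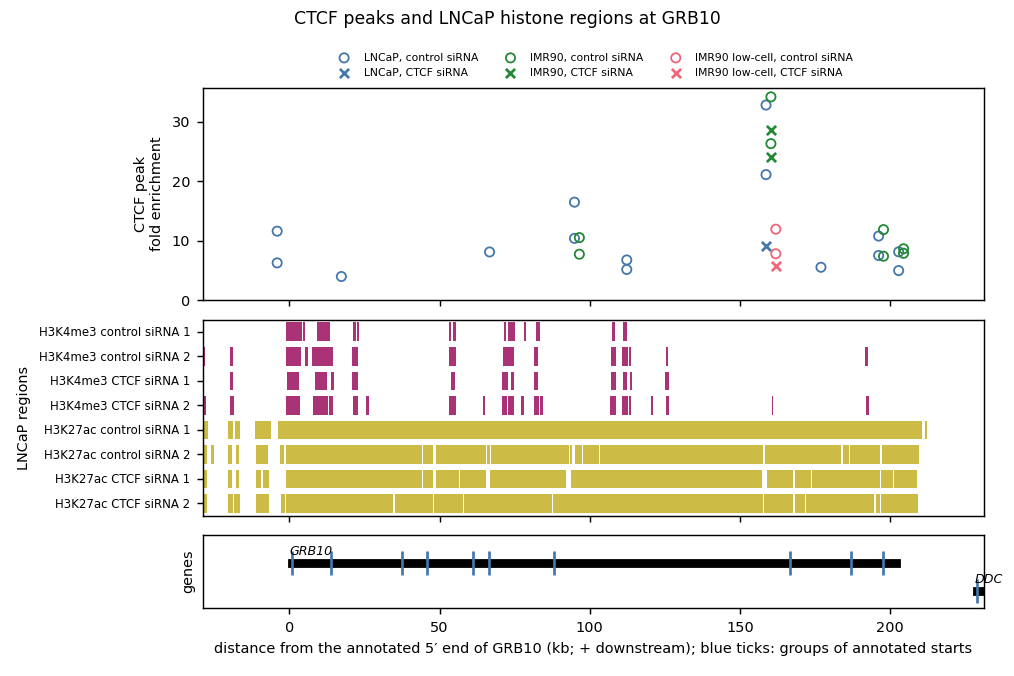
CTCF fold enrichment (top, circles for control siRNA and crosses for CTCF siRNA, the 3 experiments shifted slightly sideways), LNCaP histone regions in each library (middle) and genes (bottom) against distance in kb from the 5′ end of GRB10. H3K27ac fills most of the gene in all 4 libraries, and the crosses of all 3 experiments stand at the intronic site 160.3 kb from the 5′ end.

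H3K27ac was called in both CTCF siRNA libraries but in no control library at 3 of 25 regions (12%), against 13.2% genome-wide, and at none in the opposite direction, against 1.85% genome-wide. They were an intergenic region 9947 bp from a MEG3 start (chr14:101234751-101235800, 0.95 and 1.05 kb after CTCF siRNA), a region upstream of MEST over an exon of the non-coding gene ENSG00000259920 (chr7:130121151-130122400, 1.1 and 1.05 kb) and an intergenic region 17.7 kb from a PEG10 start (chr7:94311701-94313300, 0.9 and 1.6 kb). The share was near that of all H3K27ac regions. A region in a MEG3 intron (chr14:101287301-101289850), 2585 bp from a MEG3 start and chosen after its values were seen, held calls in all 4 libraries, over 0.75 and 0.55 kb in control cells and 2.15 and 2.55 kb with CTCF siRNA. The calls of the control libraries did not overlap each other and were joined through the CTCF siRNA regions, so no stretch was shared by all 4.

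The length of the windows covered by each mark did not differ beyond the spread between libraries. H3K4me3 covered 45.5 and 56.7 kb in control cells versus 46.8 and 72.7 kb after CTCF siRNA (51.1 ± 7.92 against 59.8 ± 18.3 kb, mean ± SD, n = 2, exact permutation test, p = 0.667). For H3K27ac the lengths were 253.65 and 238.8 kb in control cells versus 246.65 and 270.5 kb after CTCF siRNA (246.2 ± 10.5 against 258.6 ± 16.9 kb, exact permutation test, p = 0.667), and the smallest p that 2 against 2 libraries allow is 0.333. Outside the GRB10 window, a split chosen after seeing the data, H3K27ac covered 29.1 and 24.05 kb in control cells versus 36.95 and 53.05 kb after CTCF siRNA, which did not overlap (exact permutation test, p = 0.333). The H3K27ac lists covered 162 and 122 Mb of the genome in control cells versus 176 and 226 Mb after CTCF siRNA. Per 10000 bp of listed length, all 6 windows held 15.7 and 19.5 bp of H3K27ac in control cells versus 14 and 11.9 bp after CTCF siRNA, so on this scale both CTCF siRNA libraries lay below both control libraries, opposite to the difference in kb. Outside the GRB10 window the values were 1.80 and 1.96 bp in control cells versus 2.1 and 2.34 bp after CTCF siRNA, also without overlap but in the other direction. For H3K4me3 over all 6 windows they were 7.09 and 6.82 bp versus 6.65 and 7.06 bp, and the groups overlapped.

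CTCF sites and marks were also set side by side in LNCaP. H3K27ac regions held 9 of the 16 LNCaP control sites (56.2%), against 23.2% genome-wide, and 6 of the 9 lay in the GRB10 window. H3K4me3 regions held 5 of the 16 (31.2%), against 17.5% genome-wide. The control sites that carried both marks in all 4 libraries were the MEST promoter site and both PEG3 sites, and each was lost after CTCF siRNA while the regions over it stayed listed in all 4 libraries. The MEG3 distal site, the MEG3 proximal site and the GNAS intronic site lay in no region of either mark.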

How the data were processed

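CTCF, H3K4me3 and H3K27ac ChIP-seq lists of 20 libraries, 2 in each of 10 conditions, were used, and groups were taken from the sample labels. Reads were aligned to hg19 by the authors with Bowtie (BWA after adapter trimming with cutadapt and removal of duplicates by molecular identifiers for the low-cell libraries), discarded ambiguous and clonal reads, called CTCF peaks with MACS2 in each library separately and called histone regions with PeakRanger at default settings. In the deposited CTCF lists, fold enrichment is a ratio to local background, not scaled between libraries, and the deposited p-values and q-values are on a −log10 scale, with a largest q-value of 0.0499. The deposited histone regions carry a score whose meaning is not given in the sources used here, and it served only to rank regions. A peak missing from a list lies under the caller's threshold, so loss does not measure how far binding fell.

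Only chromosomes 1 to 22, X and Y were kept, and peaks were merged where they overlapped by at least 1 bp. Sites were annotated with GENCODE 44 on hg19 coordinates, counted from 1, with a start counted as near within 2000 bp. Named are persistent sites, the site with the highest mean control fold enrichment of each window and experiment, control sites within 2000 bp of a start of a listed imprinted gene, histone regions over such starts and regions exclusive to 1 treatment. The members and gene lists were chosen with earlier results of these data known. Exact permutation tests were two-sided. Same-numbered libraries share only a number. Zero counts allow 3 counts, and other shares carry 95% Wilson intervals. Site building, covered length, the permutation test and the motif search were tested on simulated data and returned what had been planted. Python 3.11.15, numpy 2.4.6, pandas 2.3.3, scipy 1.17.1, pysam 0.24.0 and matplotlib 3.10.9 were used. Alternatives were a q-value of at most 0.001, lists of equal length, an overlap of 50%, peaks wholly inside a window, a peak in either CTCF siRNA library, merging over 1000 bp, the 50% of regions with the lowest scores, other motif settings, the replicate block and leaving out each library.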

Additional observations from a re-analysis of the deposited data

How the results depend on the processing

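The summed difference in CTCF peaks stayed below 0 in all 16 alternatives and kept its side of the 0.05 threshold in 15, the exception being lists of equal length (-3, exact permutation test, p = 0.0556). With the replicate block, in which labels were exchanged only between same-numbered libraries, it was -33.5 (exact permutation test over 64 assignments, p = 0.0312), and the block changed no other call. Leaving out 1 library gave -35.0 to -32.0, with an exact permutation p of up to 0.0185. With a peak in at least 1 CTCF siRNA library counted, 2 of 16 LNCaP control sites (21.4% genome-wide), 4 of 7 in IMR90 (66.1%) and 1 of 6 low-cell sites (28.3%) qualified. Leaving out 1 library gave 0 to 2 persistent sites in LNCaP (2 without CTCF siRNA replicate 1, against 20.6% genome-wide), 3 to 4 in IMR90 (4 without CTCF siRNA replicate 2, against 60%) and 0 to 1 in the low-cell experiment (1 without CTCF siRNA replicate 2, against 28.1%). At equal list lengths 0 of 1 LNCaP and 3 of 4 IMR90 control sites were persistent, and no low-cell control site was left, so no value is given. H3K4me3 regions exclusive to 1 treatment numbered 0 with merging over 1000 bp and 2 at equal list lengths, and 0 to 5 when 1 library was left out (5 without control replicate 2, 0 without control replicate 1). A region needs 2 libraries, so with 1 control library left no control-only region can be counted. The 5 were all exclusive to CTCF siRNA. Exclusive H3K27ac regions numbered 0 to 5 (5 without control replicate 1, 0 without either CTCF siRNA replicate, since a region then needs a control library to be counted). The difference in H3K4me3 length, 8.65 kb, ranged from -4.30 kb without CTCF siRNA replicate 2 to 21.6 kb without CTCF siRNA replicate 1, and that in H3K27ac length, 12.3 kb, from 0.425 to 24.3 kb. The motif was found at 15 of 17 control sites, at 7 with 1 mismatch and at 13 within 50 bp of the summit. Apart from the constructions named, the cause of these changes was not tested. The lists hold no read counts, and nothing was adjusted for depth. In the study's reporting summary, LNCaP CTCF siRNA replicate 1 has the fewest reads of the LNCaP CTCF libraries. It is the library without which 2 LNCaP sites were persistent, and the effect of its depth was not tested.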
